A study of Mus musculus with 29 samples.

Results

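Keratins of basal and squamous epithelium were followed in mouse bladder through 10 genes, namely Krt5, Krt14, Krt15, Krt17, Krt6a, Krt6b, Krt16, Krt1, Krt10 and Krt13. They were taken by symbol from each table of normalized counts, and all 10 were found among the 35199 genes of every table compared here. RNA-seq was made from sorted cells and from laser-captured tumor tissue, to ask how a constitutively active Pparg, a nuclear receptor, changes basal cells and the tumors that arise from them. In K5VP16;Pparg mice, which the labels list as K5VP16;Pparg+/-, tamoxifen activates a Cre driven by the Krt5 promoter, and the Cre turns on a VP16-fused Pparg in the Rosa26 locus. The transgene, and with it the marking of sorted cells, is thus restricted by a Krt5 promoter, and Krt5 is a gene described here. The Cre line is itself a transgene, so counts of Krt5 do not measure the driver.

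At 4 days after induction, Gfp-positive cells were sorted from 4 controls and 5 mutants without carcinogen treatment. The labels give the controls as wild type, and the methods of the study describe the sorted controls as K5;mTmG mice, which carry the same Cre and the reporter but no VP16;Pparg. All tumor libraries came from mice given the bladder carcinogen BBN for 5 months and were captured 4 months after induction. They comprised 3 basal tumors from mice labelled wild type, 3 luminal tumors from K5VP16;Pparg mice, and 3 luminal (upper) and 3 basal-like (lower) domains of mixed lesions of K5VP16;Pparg mice. In addition, 8 libraries came from urothelium of wild-type mice with or without 1 month of BBN, and they enter no comparison because nothing in the labels says which of their columns were treated. The labels give no ages and do not tie captured regions to animals. P-values therefore measure the spread between libraries, and are too small where regions of one group share a mouse.

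Keratins form the intermediate filaments of epithelial cells, and each filament pairs a type I with a type II chain. Krt5 (type II) and its partners Krt14 and Krt15 (type I) make up the filaments of basal layers, and in urothelium Krt14 marks a small progenitor population. Krt6a, Krt6b and Krt16 are induced in stratified epithelia by wounding and hyperproliferation, as is Krt17, which basal cells of appendages and complex epithelia also make and which is grouped with the basal keratins here. Krt1 and Krt10 are the suprabasal pair of cornified epidermis, and Krt13 is the type I keratin of suprabasal layers in stratified epithelia that do not cornify.

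The 6 type I members lie on chromosome 11 and the 4 type II members on chromosome 15 (GENCODE M21 annotation of GRCm38), all on the minus strand, with 8 or 9 exons in the longest coding transcript. Krt17 spans chr11:100256217-100261029, Krt14 chr11:100203162-100207548 and Krt15 chr11:100131758-100135928. Krt5 spans chr15:101707070-101712898, next to the near-identical pair Krt6a, at chr15:101689910-101694307, and Krt6b, at chr15:101676023-101680287. The coding sequences of this pair are 97.6% identical, with 37 mismatches and 3 gap bases. Their most divergent stretch of 60 bases, positions 817 to 876 of the coding sequence counted from the start codon, is shown because it is where the coding sequences of the pair differ most, with the 10 differing bases in capitals:
Krt6a: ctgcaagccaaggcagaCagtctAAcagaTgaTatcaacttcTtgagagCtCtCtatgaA
Krt6b: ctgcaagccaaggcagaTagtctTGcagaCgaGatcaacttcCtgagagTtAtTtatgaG
Of the 31-base words in the Krt6a transcript, 49.3% also occur in Krt6b and 66.6% in some other gene. For Krt16 the share found in any other gene is 51.9%, for Krt14 29.2%, for Krt17 15.8%, for Krt5 15.8%, and for Krt15, Krt1, Krt10 and Krt13 at most 4.31%. The estimated counts of Krt6a, Krt6b and Krt16 could thus have been split between genes by the authors' quantification, and their values are uncertain in that respect.

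The deposited normalized counts give no read depth. They summed to between 36520200 and 53904700 per library in the compared tables, and no pair of libraries within a table held identical values. Sorted cells had high Krt5, but the 6 superficial cell markers (uroplakins and Krt20) were also present, summing to 152447 to 327560 normalized counts in controls and 205147 to 350478 in mutants. Summed normalized counts of 4 Y-linked genes were 9030 to 9177 in 3 controls, 404 in control library 1 and 338 to 395 in the 5 mutants, so that sex, as read from these genes, divides the sorted libraries nearly as the genotype does. Libraries are numbered here in the order of the columns of their table.

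In the sorted cells Krt15 and Krt5 were by far the most abundant of the 10 keratins, and neither they nor any other member passed the test between mutants and controls. Per kilobase of the longest coding transcript, controls held 104788 ± 7504 normalized counts of Krt15 (SD, n = 4) and 44984 ± 3662 of Krt5 (SD, n = 4). Krt15 lay above Krt5 in every control, and both lay above Krt10 and Krt14, at 380 ± 52.3 and 323 ± 92.6 normalized counts per kilobase (SD, n = 4), which overlapped each other. Krt17, Krt13, Krt1 and Krt6a followed between 59.1 and 80.0 normalized counts per kilobase on average and overlapped each other, below every value of Krt14 and above every value of Krt6b and Krt16. The 10 keratins together held 0.678% to 0.806% of all normalized counts in controls and 0.338% to 0.648% in mutants, without overlap. This sum mostly repeats Krt15 and Krt5, which held 66.9% to 71.4% and 27.9% to 32.4% of the summed level per kilobase in controls. Of the 8 members tested, 3 were higher and 5 lower in mutants.

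Krt15 gave 183404, 159737, 180494 and 188926 normalized counts in the 4 controls, and 65097, 121598, 63151, 102799 and 152875 in the 5 mutants. Every mutant library lay below every control, and mutant libraries 1 and 3 were lowest. Control libraries averaged 178140 ± 12757 (SD, n = 4) and mutant libraries 101104 ± 38210 (SD, n = 5), a log2 fold change of -0.90 (standard error, SE, 0.27, limma adjusted p = 0.103). Krt5, the type II partner, gave 94622, 100021, 91106 and 109572 normalized counts in controls and 80458, 93817, 62918, 75938 and 92196 in mutants. The groups overlapped by the mutant libraries 2 and 5, and the log2 fold change was -0.30 (SE 0.16, limma adjusted p = 0.316).

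Krt14 gave 747, 388, 593 and 465 normalized counts in controls and 11163, 3883, 682, 1658 and 616 in mutants. Mutant libraries 1, 2 and 4 lay above every control, and mutant libraries 3 and 5 within the control range. The log2 fold change was 1.89 (SE 0.77, limma adjusted p = 0.197). With single libraries left out it ranged from 1.27, without mutant library 1, to 2.31. Krt17 varied widely within both groups, with 5.66, 249, 236 and 5.73 normalized counts in controls and 24.2, 0, 84.9, 0 and 253 in mutants (log2 fold change -1.52, SE 1.92, limma adjusted p = 0.697). Krt5 RNA thus remained within 62918 to 109572 normalized counts in all 9 libraries, whereas Krt14 covered 388 to 11163.

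Of the activation keratins, Krt6a alone reached the level needed for a test. Krt6a gave 181, 2.37, 124 and 232 normalized counts in controls and 672, 68.0, 320, 230 and 231 in mutants, with overlap (log2 fold change 1.89, SE 1.18, limma adjusted p = 0.400). The low value of control library 2 carried much of this, and without that library the log2 fold change was 0.46 (limma adjusted p = 0.753). Krt6b gave at most 0.964 normalized counts in controls and 34.2, 0, 7.27, 0 and 4.85 in mutants. Krt16 was listed at 0 in all 4 controls and at 7.11, 0, 1.48, 5.07 and 0 in mutants. Krt6b and Krt16 were too low to be tested, and mutant library 1, the highest in Krt14 and Krt6a, was also the highest in both of them.

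Among the suprabasal keratins, Krt13 came nearest to a call. It gave 72.3, 111, 167 and 177 normalized counts in controls and 374, 416, 380, 173 and 564 in mutants. Mutant library 4 alone lay within the control range, and the other 4 mutant libraries were above all controls. Control libraries averaged 132 ± 49.2 (SD, n = 4) and mutant libraries 382 ± 140 (SD, n = 5), a log2 fold change of 1.52 (SE 0.37, limma adjusted p = 0.0594). Krt1 gave 172 to 244 normalized counts in controls, with a median of 178, and 86.2 to 196 in mutants, with a median of 141 (log2 fold change -0.45, SE 0.26, limma adjusted p = 0.368). Krt10 gave 649 to 900 and 624 to 825 normalized counts (log2 fold change -0.13, SE 0.14, limma adjusted p = 0.634). The epidermal pair thus overlapped between the groups.

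**Figure D1:**
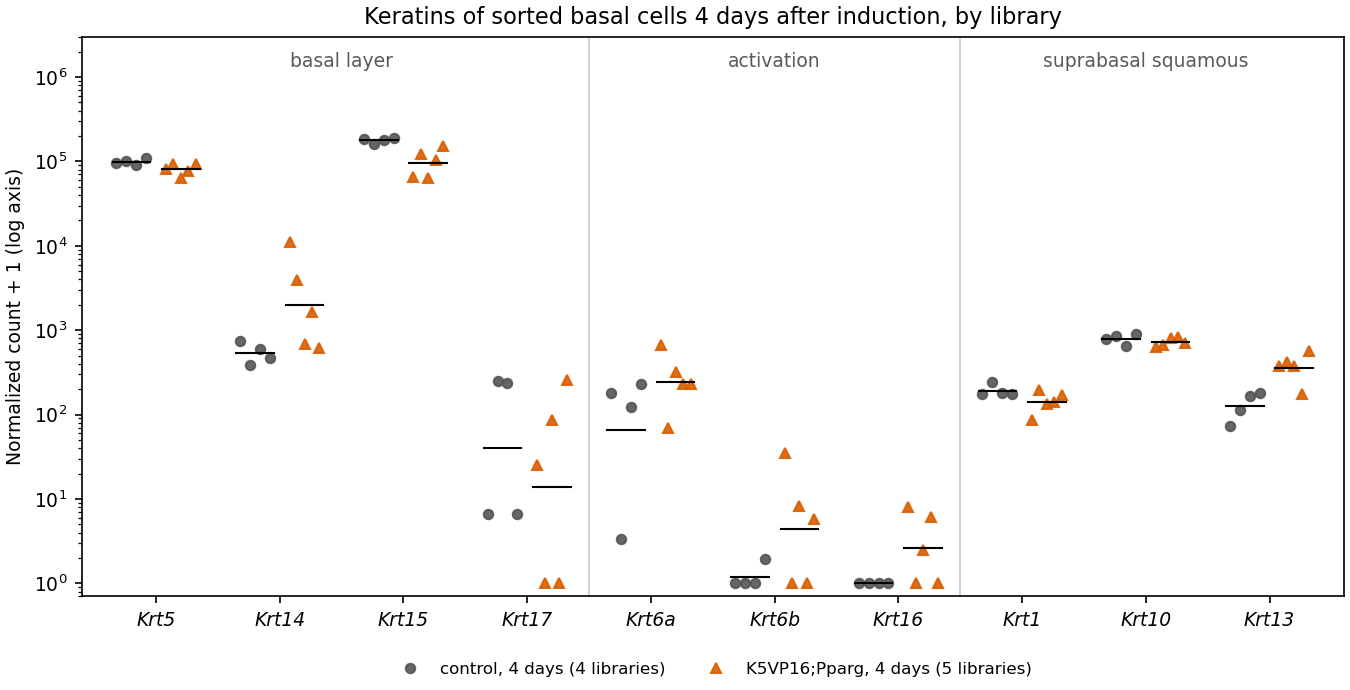
Normalized counts plus 1 (log axis) of the 10 keratins in each sorted library 4 days after induction, controls as circles (n = 4) and K5VP16;Pparg mutants as triangles (n = 5), with a black bar at the mean of the log values. Krt15 is the only keratin in which every mutant (63151 to 152875) lies below every control (159737 to 188926).

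Of the 8 members tested at 4 days 0 were called at a limma adjusted p under 0.05, against 2.85% of the 16413 genes tested, and 3 (Krt15, Krt14 and Krt13) had an unadjusted p under 0.05, against 20.8% of all genes tested. Groups did not overlap in 1 member of 8, against 9.18% of all genes tested. The median log2 fold change was -0.21 over the members and 0.00 over all genes tested. Without mutant library 4, Krt13 was called, with a log2 fold change of 1.78 (limma adjusted p = 0.0234). Over all genes tested, the fits with single libraries left out called 129 to 596, against 467 with every library kept. The 1 control with low Y-linked counts gave 72.3 normalized counts of Krt13, the lowest of the 9 libraries. It also gave 747 of Krt14, the highest of the controls, and 183404 of Krt15, within the range of the other controls. The part of sex in these values was not tested.

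Other genes of the keratin network were followed at 4 days through lists of genes of known function. Of 5 simple and luminal keratins 1 was called, Krt20 of superficial cells, which averaged 808 ± 373 normalized counts in control (SD, n = 4) and 2951 ± 1436 in mutant libraries (SD, n = 5), a log2 fold change of 1.83 (limma adjusted p = 0.0444). Of 6 other epidermal and oral keratins tested 1 was called higher, Krt78 (log2 fold change 1.02, limma adjusted p = 0.0262). Of 10 cornified envelope and squamous desmosome genes tested 1 was called higher, the crosslinking enzyme Tgm1 (log2 fold change 1.69, limma adjusted p = 0.0284). Of 11 genes that anchor keratins 1 was called, Col17a1, a hemidesmosome collagen of basal cells, which fell from 22475 ± 7157 normalized counts (SD, n = 4) to 8780 ± 2547 (SD, n = 5), a log2 fold change of -1.34 (limma adjusted p = 0.0315). Over the anchoring genes 6 were higher and 5 lower, with a median log2 fold change of 0.02. Of 17 transcription factors of stratified epithelia 0 were called by limma, and 9 had an unadjusted p under 0.05, against 20.8% of all genes tested. Of 7 basal urothelial markers, a list that holds Krt5, Krt14 and Col17a1, 3 were higher and 4 lower with a median log2 fold change of -0.26, and 1 was called in each direction. Col17a1 fell, as given above, and the adhesion receptor Cd44 rose, from 5100 ± 528 normalized counts in control libraries (SD, n = 4) to 8655 ± 1124 in mutant libraries (SD, n = 5) (log2 fold change 0.76, limma adjusted p = 0.0116). Beside these, the 10 smooth muscle and fibroblast markers were all higher in mutants and 1 was called (Lum), with sums of 11760 to 85570 normalized counts in controls and 30916 to 218518 in mutants. Their median log2 fold change was 2.02, and 8 of the 10 had an unadjusted limma p under 0.05, against 20.8% of all genes tested. In the 8 leukocyte markers the sums overlapped, at 810 to 1727 and 316 to 2223. The part of these other cells and of sex in the keratin values was not tested, and in bulk RNA fewer cells of a type cannot be told apart from less RNA per cell.

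In the tumors Krt17 differed more between luminal and basal lesions than any other of the 10 keratins, by its log2 fold change. The basal tumors gave 35296, 16184 and 184350 normalized counts of Krt17, the luminal tumors 164, 69.7 and 868, and the 2 luminal domain libraries from the same normalization 383 and 1697. The lowest basal tumor lay above every K5VP16;Pparg library of this table. Krt17 fell from 78610 ± 92071 normalized counts (SD, n = 3) in basal tumors to 367 ± 436 (SD, n = 3) in luminal ones, a log2 fold change of -7.77 (SE 1.08, limma adjusted p = 0.0194), and ranked 31st by p among all genes tested. It was the only member of 10 called, against 2.20% of the 15357 genes tested.

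Krt14 gave 198501, 136976 and 423450 normalized counts in basal tumors and 16891, 2431 and 95586 in luminal tumors. The groups did not overlap, but luminal tumor library 3 lay close to the basal range, and the log2 fold change of -3.84 did not pass the test (SE 1.09, limma adjusted p = 0.110). Krt5 gave 60435, 150656 and 198996 normalized counts in basal tumors and 43414, 4731 and 91588 in luminal tumors (log2 fold change -2.20, SE 0.95, limma adjusted p = 0.260). Krt15, unlike its partner, gave 4615, 180982 and 94536 normalized counts in basal tumors and 246271, 33876 and 282252 in luminal tumors. Its values overlapped, the lowest of the 6 being basal tumor library 1 and the highest luminal tumor library 3 (log2 fold change 1.63, SE 1.27, limma adjusted p = 0.539). Without basal tumor library 1 the log2 fold change of Krt15 was 0.024, and without basal tumor library 2 it was 2.67.

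Krt16 gave 7427, 2966 and 31428 normalized counts in basal tumors and 60.8, 97.6 and 4051 in luminal ones (log2 fold change -4.92, SE 1.44, limma adjusted p = 0.118). Krt6a gave 84159, 33897 and 132285 normalized counts in basal tumors and 6903, 1634 and 94166 in luminal ones (log2 fold change -2.82, SE 1.20, limma adjusted p = 0.252). In both genes luminal tumor library 3 lay within the basal range and the other luminal tumors below it. Krt6b ranged from 77.0 to 40541 normalized counts in basal tumors and from 87.6 to 4247 in luminal tumors, with overlap (limma adjusted p = 0.774).

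The suprabasal keratins did not follow the same order. Krt10 gave 2018, 1662 and 1353 normalized counts in basal tumors and 3559, 2226 and 4995 in luminal tumors. Every luminal tumor lay above every basal tumor, with a log2 fold change of 1.04 that did not pass the test (SE 0.80, limma adjusted p = 0.528). The SE also holds the spread of the 2 luminal domain libraries in this fit, at 15118 and 1122, above and below every tumor. Krt1, the epidermal partner of Krt10, gave 3.18, 58.2 and 1971 normalized counts in basal tumors and 1300, 109 and 59.5 in luminal tumors, so the spread within each group exceeded the difference between them. Krt13 gave 668, 13604 and 110229 normalized counts in basal tumors and 45859, 504 and 41168 in luminal tumors (log2 fold change -0.02, SE 2.001, limma adjusted p = 0.996).

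**Figure D2:**
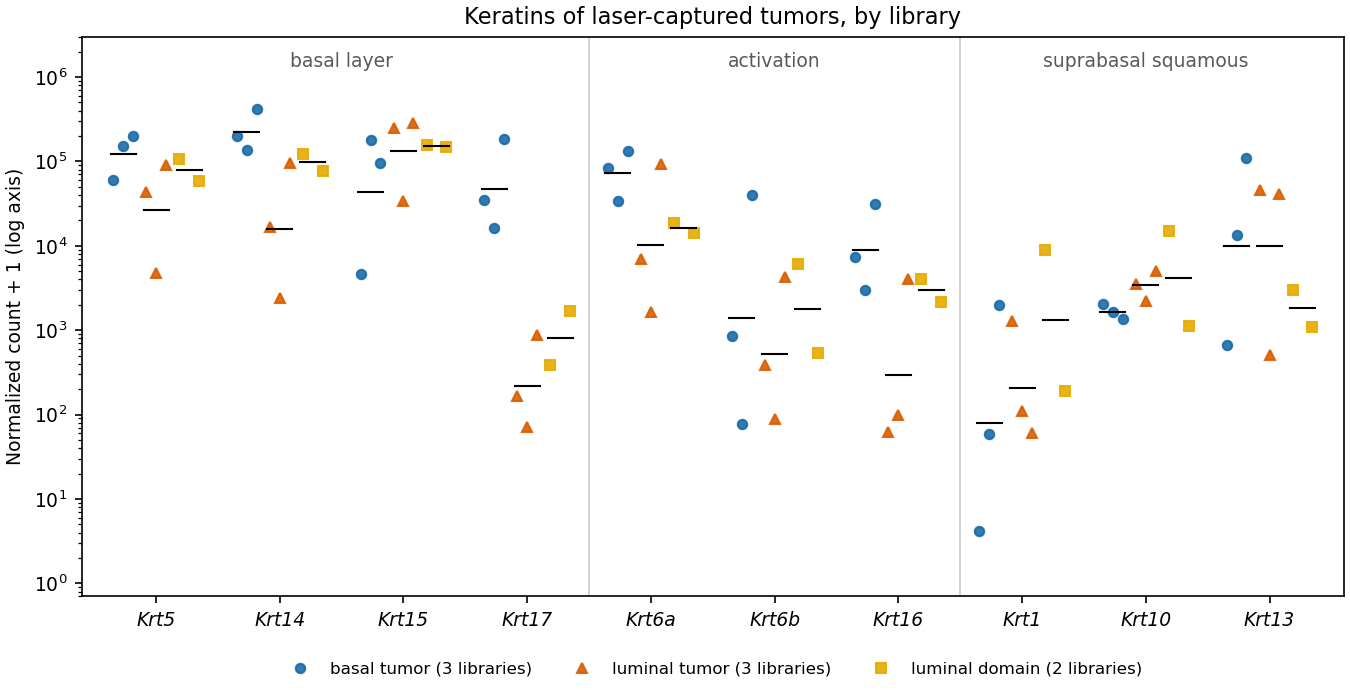
Normalized counts plus 1 (log axis) of the 10 keratins in each library of the larger tumor table, basal tumors as circles (n = 3), luminal tumors as triangles (n = 3) and luminal domains as squares (n = 2), with a black bar at the mean of the log values. In Krt17 the lowest basal tumor, at 16184, lies above the highest other library, at 1697.

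Groups did not overlap in 3 of the 10 members (Krt17, Krt14 and Krt10), against 21.5% of all genes tested, and 5 members had an unadjusted p under 0.05, against 18.4% of all genes tested. The median log2 fold change was -1.80 over the members and -0.11 over all genes tested. With single libraries left out, the call of Krt17 held in 5 of 8 fits and was lost without basal tumor library 1, luminal tumor library 1 or luminal tumor library 2 (limma adjusted p = 0.0844, 0.0879 and 0.0814), and also without a trend in eBayes (limma adjusted p = 0.0523). Without luminal tumor library 3, Krt14 (log2 fold change -5.14), Krt6a (-4.43) and Krt16 (-6.82) were called as well, with limma adjusted p of 0.0174, 0.0186 and 0.0100. That fit called 813 genes over all genes tested, against 338 with every library kept. Without luminal tumor library 2 the log2 fold changes were smaller, at -2.49 for Krt14, -1.50 for Krt6a, -4.14 for Krt16 and -0.95 for Krt5, and none of them was called. That fit called 3 genes over all genes tested. Luminal tumor library 2 stood apart in the keratins, which held 0.087% of its normalized counts against 0.685% and 1.21% in the other luminal tumors and 0.919% to 2.73% in the basal tumors.

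The 5 simple and luminal keratins were all higher in luminal tumors without overlap and 2 were called, Krt8 (log2 fold change 3.08, limma adjusted p = 0.0184) and Krt19 (2.55, limma adjusted p = 0.0428). Of the 16 cornified envelope and squamous desmosome genes tested 7 were higher and 9 lower, with a median log2 fold change of -1.11. Called higher were 2, the envelope precursors Ivl (log2 fold change 5.36, limma adjusted p = 0.0364) and Sprr1a (4.70, limma adjusted p = 0.0303). Called lower was 1, the desmosome plaque gene Pkp1 (-2.14, limma adjusted p = 0.0491). Of the 11 genes that anchor keratins 3 were higher and 8 lower, with a median log2 fold change of -0.78. The 3 called were all lower, namely the hemidesmosome genes Col17a1 (-3.19), Itgb4 (-2.34) and Itga6 (-2.19), with limma adjusted p from 0.0294 to 0.0398. Of the 8 other epidermal and oral keratins and the 17 transcription factors tested 0 were called by limma, and 2 and 5 had an unadjusted p under 0.05, against 18.4% of all genes tested.

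Captured tissue differed in other cells in the same direction as Krt17. The 10 smooth muscle and fibroblast markers summed to 49052 to 104450 normalized counts in basal tumors and to 224 to 18158 in luminal tumors, where Des was at 0 in every library, and 4 of them were called lower. The 8 leukocyte markers summed to 23911 to 132112 in basal and to 403 to 8422 in luminal tumors. The superficial cell markers went from 743 to 8759 in basal tumors to 91923 to 607503 in luminal tumors, and 4 of 6 were called. The part of the other cells in the keratin differences was not tested.

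Luminal domains of mixed lesions were compared with the same 3 basal tumors in a table normalized on its own, so this comparison shares its reference libraries with that of the luminal tumors. Krt17 gave 37151, 16702 and 191853 normalized counts in basal tumors and 409, 1836 and 1736 in luminal domains. It fell from 81902 ± 95768 (SD, n = 3) to 1327 ± 797 (SD, n = 3), a log2 fold change of -5.49 (SE 0.91, limma adjusted p = 0.0316). It was the only member of 10 called, against 2.53% of the 14921 genes tested.

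Krt6a gave 88681, 35021 and 137824 normalized counts in basal tumors and 19679, 15260 and 21749 in luminal domains. The luminal domains lay close together and below every basal tumor, with a log2 fold change of -2.01 (SE 0.49, limma adjusted p = 0.0781). Krt14 gave 217341, 147050 and 458421 normalized counts in basal tumors and 135246, 87519 and 105889 in luminal domains, likewise without overlap (log2 fold change -1.18, SE 0.49, limma adjusted p = 0.224). Luminal domain library 1 lay just under the lowest basal tumor.

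Krt5 gave 63683 to 207329 normalized counts in basal tumors and 64302 to 113247 in luminal domains, and Krt16 gave 3061 to 32708 and 2334 to 4368, both with overlap (log2 fold changes -0.62 and -1.59, limma adjusted p = 0.528 and 0.286). With single libraries left out, these fold changes ranged from -1.12 to -0.27 for Krt5 and from -2.39 to -0.68 for Krt16. Krt15 gave 4859, 186830 and 98413 normalized counts in basal tumors and 167779, 159971 and 398092 in luminal domains (log2 fold change 2.30, SE 1.22, limma adjusted p = 0.335, and 0.70 as log2 fold change without basal tumor library 1). Krt6b ranged from 79.6 to 42241 and from 578 to 6484, and its log2 fold change was 0.08, turning to -0.064 with upper-quartile scaling. Luminal domain library 1 was the highest of the 6 libraries in the epidermal pair, with 9135 normalized counts of Krt1 and 16489 of Krt10, against at most 1972 and 2820 in the other 5. Krt13 gave 695, 13891 and 113503 normalized counts in basal tumors and 3197, 1171 and 9016 in luminal domains (limma adjusted p = 0.611).

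Groups did not overlap in 3 of the 10 members (Krt17, Krt14 and Krt6a), against 26.8% of all genes tested, and the same 3 had an unadjusted p under 0.05, against 20.6% of all genes tested. The median log2 fold change was -0.90 over the members and 0.01 over all genes tested. With single libraries left out, the call of Krt17 held in 1 of 6 fits, that without basal tumor library 2 (limma adjusted p = 0.0233), in which Krt6a was called too (log2 fold change -2.56, limma adjusted p = 0.0215), and in the other 5 its limma adjusted p ranged from 0.0504, without basal tumor library 3, to 0.125, without luminal domain library 2. Without a trend in eBayes the call of Krt17 was lost as well (limma adjusted p = 0.103). Over all genes tested, the fit without basal tumor library 2 called 467, against 377 with every library kept. Of the fixed lists, Krt19 (log2 fold change 2.65), Ivl (5.20) and Sprr1a (4.58) rose and Itga6 fell (-1.52), with limma adjusted p from 0.0258 to 0.0482. The 5 simple and luminal keratins, with Krt19 among them, were all higher. Of the 16 cornified envelope and squamous desmosome genes tested, 7 were higher and 9 lower, with a median log2 fold change of -0.19. Of the 11 anchoring genes, 5 were higher and 6 lower, with a median of -0.03. Superficial cell markers summed to 781 to 9044 normalized counts in basal tumors and to 57376 to 320872 in luminal domains, and 2 of 6 were called, the uroplakins Upk3b (9.53) and Upk2 (7.58), with limma adjusted p of 0.0237 and 0.0258. Smooth muscle and fibroblast markers summed to 50702 to 109259 normalized counts in basal tumors and to 6370 to 32910 in luminal domains, where Cnn1 was at 0 and 2 of 10, Cnn1 and Acta2, were called lower, and leukocyte markers to 24858 to 138930 and 6710 to 13787; their part in the keratin values was not tested.

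**Figure D3:**
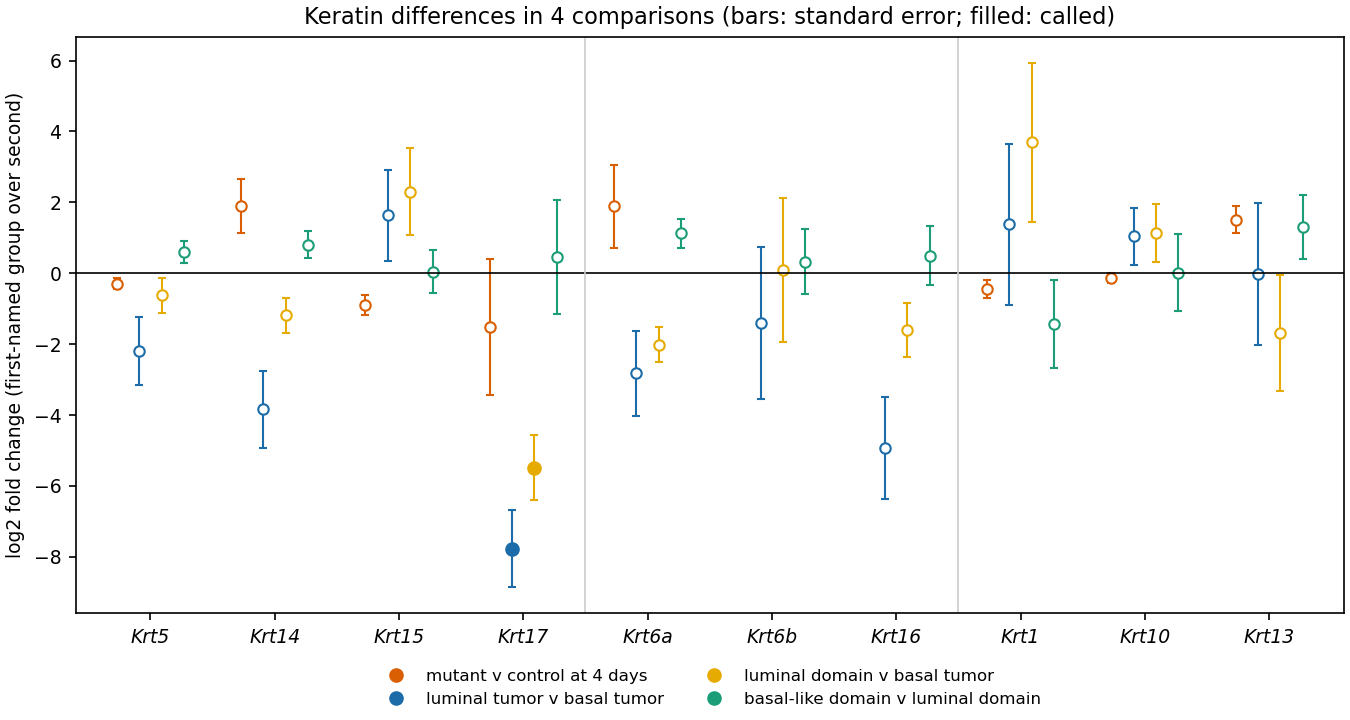
Log2 fold changes of the 10 keratins in the 4 comparisons, on the scale of log2(normalized count + 1), with bars for the standard error, filled points where the limma adjusted p was under 0.05 and no point where a gene was too low to test. Krt17 is filled in both comparisons with basal tumors, at -7.77 and -5.49, and no other point is filled.

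Within mixed lesions 0 of the 10 members were called between the basal-like and the luminal domains. The log2 fold change was positive in 9 of them and highest in Krt13, at 1.30. Krt6a gave 19901, 15631 and 22257 normalized counts in luminal domains and 20657, 53760 and 64410 in basal-like domains. Basal-like domain library 1 lay within the luminal range and the other 2 well above it, with a log2 fold change of 1.12 (SE 0.42, limma adjusted p = 0.935). Krt14 gave 142794, 93592 and 113133 normalized counts in luminal domains and 120234, 284949 and 238121 in basal-like domains (log2 fold change 0.81, SE 0.39, limma adjusted p = 0.935). Krt5 gave 114487, 65842 and 79590 normalized counts in luminal domains and 104213, 149980 and 133436 in basal-like domains (log2 fold change 0.60, SE 0.31, limma adjusted p = 0.935). In all 3 genes it was again basal-like domain library 1 that overlapped the luminal domains.

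Krt17, the gene that fell in luminal lesions, gave 412, 1873 and 1770 normalized counts in luminal domains and 394, 28370 and 320 in basal-like domains. Only basal-like domain library 2 was high, and it had the level of the lower basal tumors of the other tables, which were normalized separately. Krt16 gave 4400, 2381 and 2850 normalized counts in luminal domains and 949, 9606 and 9262 in basal-like domains, so that libraries 2 and 3 were high in Krt16 and library 2 alone was high in Krt17. Krt6b ranged from 592 to 6556 and from 877 to 4449 normalized counts.

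Krt15 gave 169109, 163312 and 406035 normalized counts in luminal domains and 118743, 195281 and 534984 in basal-like domains (log2 fold change 0.05, SE 0.62). Krt13 gave 3145, 1167 and 8975 normalized counts in luminal domains and 3433, 5388 and 26720 in basal-like domains (log2 fold change 1.30, SE 0.90, limma adjusted p = 0.935). Krt10 gave 19298, 1470 and 3340 normalized counts in luminal domains and 19065, 2124 and 2420 in basal-like domains. In Krt10 the first library of each domain was far above the others of its domain, and no difference between the domains could be read from it (log2 fold change 0.02, SE 1.08). Krt1 gave 9017, 198 and 583 normalized counts in luminal domains and 612, 246 and 355 in basal-like domains (log2 fold change -1.43, SE 1.25).

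**Figure D4:**
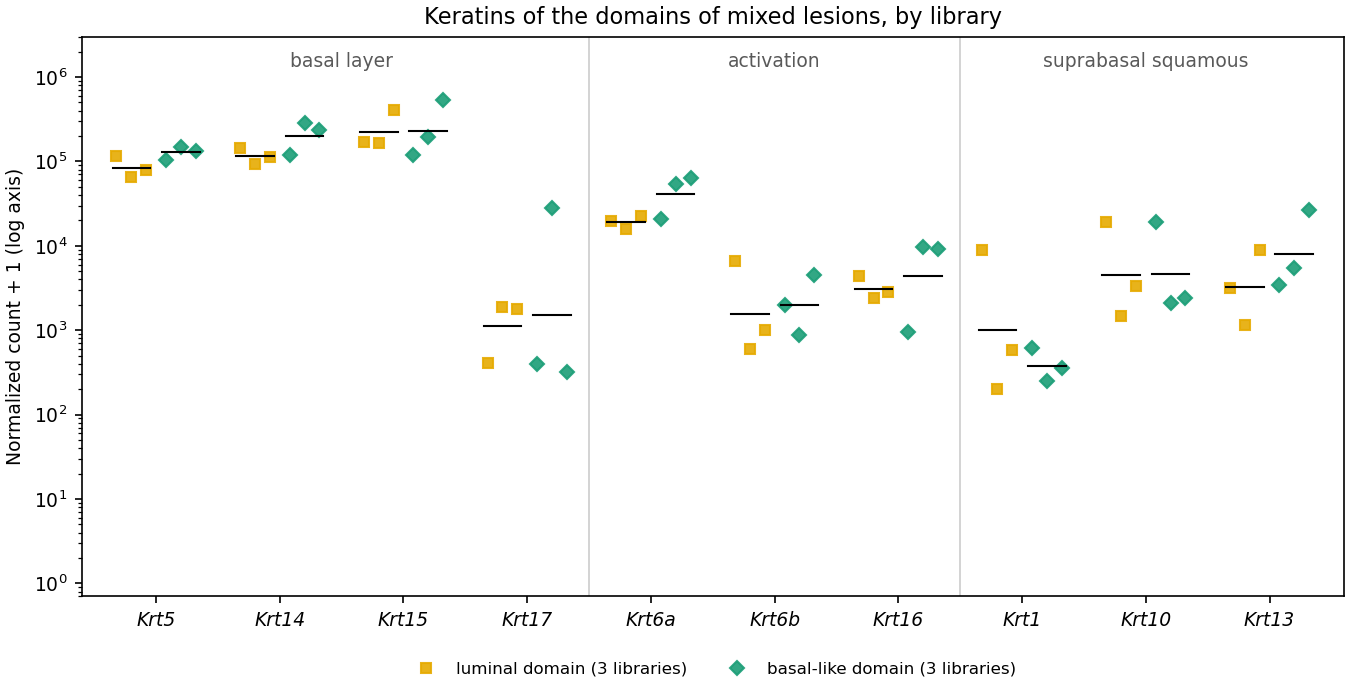
Normalized counts plus 1 (log axis) of the 10 keratins in each library of the domain table, luminal domains as squares and basal-like domains as diamonds (n = 3 each), with a black bar at the mean of the log values. In Krt17 a single basal-like domain, at 28370, stands above 5 libraries between 320 and 1873.

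Between the domains 0 of 14874 genes (0%) had a limma adjusted p under 0.05, 757 genes and 1 member (Krt6a) had an unadjusted p under 0.05, and the alternatives of processing called 0 to 20 genes and 0 members. The labels do not pair the regions, but those with adjacent library numbers deviated together, and with these 3 pairs as a block 0 members were called by limma, while 4 members (Krt6a, Krt13, Krt14 and Krt5) had an unadjusted p under 0.05, against 12.5% of all genes tested. Krt6a and Krt13 were higher in the basal-like region of all 3 pairs (limma adjusted p = 0.261 for both), and Krt14 and Krt5 in 2 of 3 pairs. Groups overlapped in all 10 members, whereas 10.8% of all genes tested did not overlap. The log2 fold change was positive in 9 of the 10 members with a median of 0.48, against 0.01 over all genes tested. Among the anchoring genes, the cornified envelope genes, the transcription factors and the other keratins 0 were called. Superficial cell markers summed to 58607 to 322467 normalized counts in luminal domains and to 29473 to 80155 in basal-like domains, and smooth muscle and fibroblast markers to 6613 to 33958 and 15757 to 108197, and the part of these cells in the keratin values was not tested.

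The make-up of the 10 keratins was compared within a library, as the share of each in their summed level per kilobase, a description with no test. In sorted controls Krt15 held 66.9% to 71.4% and Krt5 27.9% to 32.4%. In sorted mutants Krt15 held 46.5% to 67.5%. Krt14, at 0.163% to 0.290% in controls, held 7.98%, 1.95%, 0.599%, 1.01% and 0.272% in the mutant libraries in order, the last within the control range. In basal tumors Krt14 held 27.6% to 54.8%, Krt17 3.57% to 17.5%, Krt6a 5.10% to 17.3%, and Krt15 from 1.27% to 36.5%. In luminal tumors Krt15 led with 49.2% to 77.3%, while Krt14 held 4.79% to 16.7% and Krt17 0.051% to 0.174%. In luminal domains Krt15 held 37.5% to 65.95% and Krt14 18.4% to 31.7%, and in basal-like domains 28.5% to 55.3% and 24.6% to 41.6%, ranges that overlapped. Within the 3 pairs of adjacent library numbers, Krt15 held 37.5% and 33.2%, 49.9% and 28.5%, and 65.95% and 55.3% in the luminal and the basal-like region, lower in the latter each time. Krt14 held 31.7% and 33.7%, 28.6% and 41.6%, and 18.4% and 24.6%, higher in the basal-like region each time. Krt15 was thus the leading keratin of the sorted cells and of every luminal tumor and luminal domain, and Krt14 that of basal tumor libraries 1 and 3 and of basal-like domain libraries 1 and 2.

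**Figure D5:**
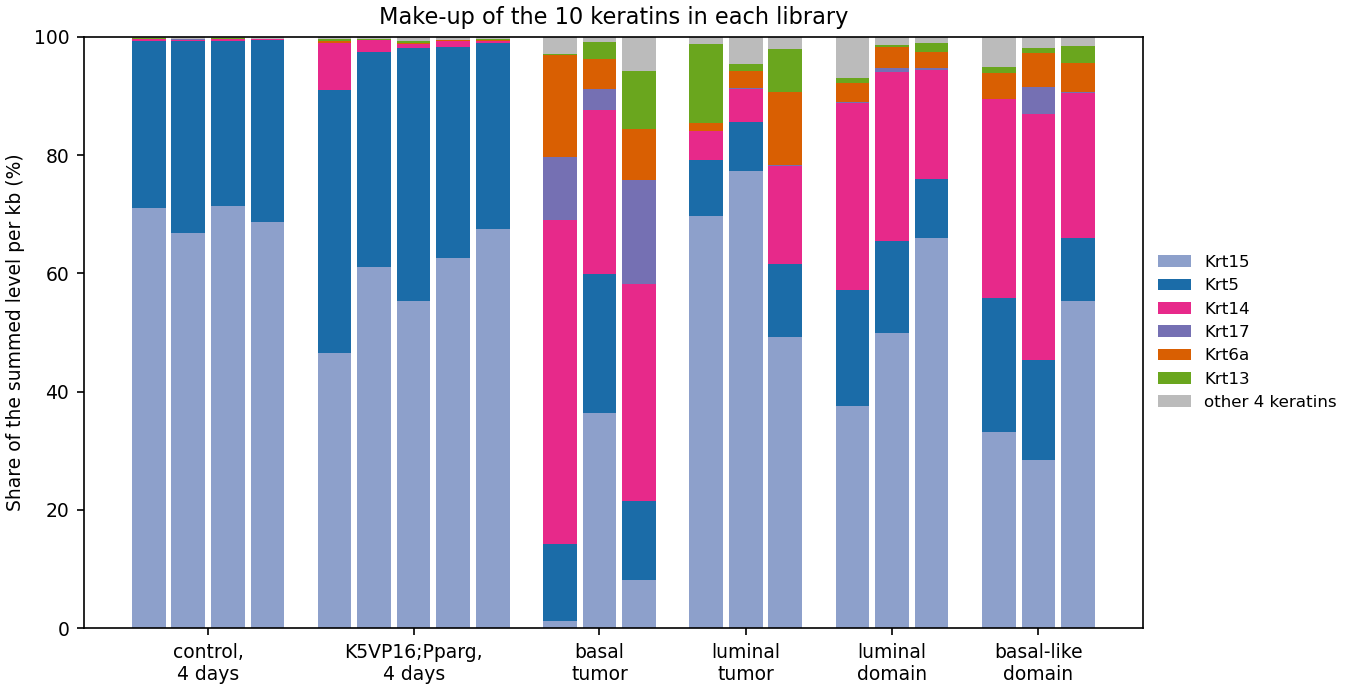
Share in percent of each keratin in the summed level per kilobase of the 10 keratins, 1 bar per library, with the sorted cells, the tumors and the domains each from their own table. Krt15 takes 66.9% to 71.4% in sorted controls and 49.2% to 77.3% in luminal tumors, and 1.27% in the first basal tumor.

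Ratios within a library do not depend on its total, but they do depend on factors that differ between genes and between tables. Luminal domain library 1 gave 149, 155 and 161 of Krt14 for every 100 of Krt5 in the tables that hold it. Ratios from separately normalized tables are thus not on the same scale. For every 100 normalized counts per kilobase of Krt5, Krt14 held 0.502 to 1.02 in sorted controls and 0.864 to 18.0 in sorted mutants, 118 to 425 in basal tumors and 50.3 to 135 in luminal tumors, with overlap in both comparisons. Krt13 held 0.101 to 0.243 per 100 of Krt5 in sorted controls and 0.303 to 0.813 in sorted mutants, without overlap. The other ratios formed all overlapped in the sorted cells. These were Krt6a to Krt5, Krt6b to Krt6a, Krt16 to Krt14, Krt10 to Krt1, Krt17 to Krt14 and the type I to the type II sum. For every 100 of Krt14, a ratio added after the values of Krt17 were seen, Krt17 held 12.9 to 47.7 in basal tumors and 0.994 to 3.14 in luminal tumors. The ranges of this ratio did not overlap, whereas those of the other ratios did. In the domain table the same ratio was 0.316 to 2.19 in luminal domains and 0.359, 10.9 and 0.147 in basal-like domains. Krt6a held 21.7 to 134 per 100 of Krt5 in basal tumors, 15.3 to 99.2 in luminal tumors, 16.8 to 27.0 in luminal domains and 19.1 to 46.6 in basal-like domains. Within the pairs of adjacent library numbers this was 16.8 and 19.1, 22.9 and 34.6, and 27.0 and 46.6. It was higher in the basal-like region each time.

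The genes most like Krt5 across the 9 sorted libraries, after group means were subtracted, were Cyren, Zdhhc8, Olfr481, Ankra2 and Dph6, with Pearson r from 0.943 to 0.976. Those most like Krt6a across the 8 libraries of the larger tumor table were Ikbip, Tmem88, Ybx1, Ola1 and Proser3, with r from 0.992 to 0.997. These are the highest of all genes tested over 9 and 8 libraries that share their normalization, and are given as a description. After group means were subtracted, 7 and 5 degrees of freedom remained. The highest r among so many genes is then near its upper limit in any case, and it carries little weight.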

How the data were processed

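The deposited signal values are normalized counts: the authors ran kallisto on the reads, gathered transcripts into genes (tximport) and divided by the factors of DESeq2, each table on its own. The submitters' processing notes name kallisto 0.44.0, DESeq2 1.18 and GRCm38. These factors differ between genes, so reads could not be recovered, and the depth is unknown. The authors' own comparisons, in separate tables, hold fold changes and p-values and were not used.

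A gene was tested if it reached 10 normalized counts in a number of libraries equal to the size of the smaller group. limma 3.58.1 under R 4.3.3 (lmFit, eBayes with trend) was run on log2(normalized count + 1), which understates the change of low genes; Benjamini-Hochberg adjustment ran over all genes tested, at 0.05. The luminal tumors were fitted with the 2 luminal domain libraries of their table as a further group sharing the spread. The count model the authors used was not run, as it needs raw counts. The 10 members, all named here, and the gene lists, from which up to 3 called genes per comparison are named by fold change, were chosen with earlier results of these data known. Transcript lengths and 31-base words came from the GENCODE M21 transcripts. Alternatives were another pseudocount, no filter, no trend, 2 scalings, other tables or groupings, and each library left out. In the domain table, regions with adjacent library numbers deviated together from their group means (Pearson r from 0.330 to 0.363 across genes in the 3 pairs), so a fit with these pairs as a block was added after the data were seen. Figures were drawn with Python 3.11.15 and matplotlib 3.10.9.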

Additional observations from a re-analysis of the deposited data

Results flagged for a closer look

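Of 19 groups of 4 or 5 sorted libraries, 3 held a keratin value far from the others on the log2 scale, where chance gives about 1 in 20. Krt6a had 2.37 normalized counts in control library 2, against 124 to 232 in the other controls. Krt1 had 244 normalized counts in the same library, against 172 to 180 in the other controls. Krt6b had 0.964 normalized counts in control library 4 and was at 0 in the other controls. With ties at 0, any value above 0 in that gene would stand apart in this way, so it carries no weight beside the other 2.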

How the results depend on the processing

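For the sorted cells and for the comparisons with basal tumors, no paired analysis was possible because the columns carry library numbers and not the replicate numbers of the labels. For the domains, a replicate block of regions with adjacent library numbers, taken as pairs after seeing the data, called 0 members and 1 gene, Ctse (log2 fold change -3.29, limma adjusted p = 0.0358). Of 236 member fold changes under alternatives other than leaving out a library, 232 kept their direction and their side of the threshold. Without a trend in eBayes 0 members were called in the luminal tumors and 0 in the luminal domains (Krt17, limma adjusted p = 0.0523 and 0.103). With each library left out, 0 to 1 members were called at 4 days, 0 to 4 in luminal tumors, 0 to 2 in luminal domains and 0 in the domains of mixed lesions. Directions turned for Krt17 at 4 days, in the libraries with low Y-linked counts alone, an alternative added after seeing the data that leaves a single control, so that it says little (log2 fold change 1.08), and for Krt6b in the luminal domains with upper-quartile scaling (-0.064). With single libraries left out, 22 of 272 fold changes turned: in luminal tumors Krt1 ranged from -0.73 to 3.71, Krt13 from -1.98 to 2.12 and Krt6b from -3.49 to 1.02; in luminal domains Krt6b ranged from -2.002 to 2.51 and Krt13 from -3.62 to 0.056; between the domains Krt15 ranged from -0.56 to 0.53, Krt17 from -1.64 to 1.59, Krt1 from -2.60 to 0.15, Krt6b from -0.38 to 1.36, Krt10 from -1.01 to 1.06 and Krt16 from -0.065 to 1.60. The cause was not tested. Quantile normalization moved the median log2 fold change of all genes from -0.11 to 0.02 in luminal tumors, and upper-quartile scaling from 0.01 to -0.14 in luminal domains. Calls over all genes were 290 higher and 177 lower at 4 days (270 and 287 with quantile normalization), and 254 higher and 123 lower in luminal domains (179 and 134 with upper-quartile scaling). With each library left out, calls over all genes ranged from 129 (without control library 3) to 596 (without mutant library 2) at 4 days, from 3 (without luminal tumor library 1 or 2) to 813 (without luminal tumor library 3) in luminal tumors, and from 0 (without luminal domain library 1 or 2) to 467 (without basal tumor library 2) in luminal domains. Without known depth, no limit can be set for genes listed at 0.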

Other observations

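In the table of 8 libraries of wild-type urothelium with or without 1 month of BBN, whose columns the labels do not assign to a condition, the keratins varied as follows, in column order. Krt6a gave 16.6, 15.8, 2.47, 16.5, 16479, 16993, 16725 and 12274 normalized counts. Krt14 gave 389, 231, 185, 120, 22671, 21020, 45034 and 18899. In both genes the values fell into separate clusters of 4 libraries each, with none between 16.6 and 12274 in Krt6a and none between 389 and 18899 in Krt14. The higher cluster was libraries 5 to 8 in both genes. The submitters set these libraries against libraries 1 to 4, without a label of which were treated. Krt16 gave 1.11, 0, 0.821, 0, 165, 125, 148 and 165 normalized counts, and the same 4 libraries were high. Krt6b gave 1.11, 0, 0, 0, 711, 674, 777 and 32.5, so that library 8 was low in this gene and high in Krt6a.

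Krt5 gave 76369, 94739, 80481, 79079, 134395, 116235, 137217 and 112238 normalized counts in the 8 libraries, and its widest gap also set libraries 5 to 8 above the rest, from 94739 to 112238. Krt15 gave 36544, 67137, 51297, 44235, 177789, 108452, 121953 and 85456 normalized counts. Krt17 did not follow, with 258, 274, 0.820, 347, 31.7, 60.5, 963 and 79.7 normalized counts. Krt13 gave 116, 154, 40.2, 170, 5476, 471, 2343 and 853, Krt1 ranged from 116 to 256 with a median of 164, and Krt10 ranged from 198 to 677 with a median of 319. No comparison between conditions was made with these libraries.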
